A study of Mus musculus with 6 samples.

Results

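Cytokine genes and 1 cytokine receptor gene, 10 in all, were followed in mouse bone marrow cells grown as myeloid colonies: the type 2 cytokines Il4 and Il13, the IL-6 family cytokines Il6, Lif and Osm, the inflammatory cytokines Il1a, Il1b and Tnf, the macrophage growth factor Csf1, and Il1rl1, which encodes the IL-33 receptor ST2. The 10 genes were taken by symbol from the 46983 genes of the deposited tables. The libraries were made from polyA RNA of C57BL/6 mice, given as 8 to 11 weeks of age. Lineage-depleted marrow progenitors had grown for 6 to 7 days in a methylcellulose medium that held IL-6 beside stem cell factor and IL-3, so IL-6 protein was supplied to every group. There were 3 wild type (WT) and 3 Psip1-KO (KO) samples. The design text writes the 2 genotypes as PsipFl/Fl and PsipVav/Vav (the first a floxed allele, the second named for Vav, a gene whose promoter is active across blood cell lineages), while the sample labels call the controls wild type. Psip1 encodes the chromatin reader LEDGF/p75, and the comparison asks how RNA levels in normal myeloid colony cells differ with its loss. The labels do not say whether the samples came from separate mice, so p-values measure the spread between these samples, which may in part be technical.

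Mast cells and basophils, which IL-3 and stem cell factor favour in culture, can make IL-4 and IL-13 themselves, and ST2 on their surface passes the IL-33 signal through MyD88 to NF-kappaB. Macrophages and granulocytes make IL-1, TNF and IL-6 in short bursts after stimulation. Such bursts are held short because many cytokine transcripts carry AU-rich elements in the 3′ UTR, which proteins such as tristetraprolin bind to start decay of the RNA.

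Levels are given as CPM, read counts scaled to a common library size. They are listed as WT replicate 1 then 2, and KO replicates 1, 2 and 3, with WT replicate 3 apart because it was shallow. Psip1 itself was at 89.3 and 70.0 CPM in WT against 14.8, 17.6 and 16.3 CPM in KO, and WT replicate 3 held 3 Psip1 reads. Its log2 fold change of -2.32 had an adjusted p of 0.060 by edgeR, so the targeted gene itself missed the threshold of 0.05 in this fit. The other 5 libraries, called deep here, held 7056614 to 15569088 reads assigned to genes. WT replicate 3 held 27909 over 2 runs, so that 1 read in it equals 29.9 CPM and 3 reads, the limit given here for a gene with no read, equal 89.6 CPM (the two-sided exact 95% bound is 110.2 CPM). KO replicate 2 also stood apart, with 15.7% of its gene reads from mitochondrial genes against 1.26% to 1.84% in the other deep libraries (9.52% in WT replicate 3). Neutrophil markers were abundant in every deep library, and markers of mast cells, basophils, eosinophils and macrophages were all present. The T cell genes Cd3e, Cd3g, Trbc2 and Cd8a, the B cell gene Ms4a1 and the stromal genes Col3a1 and Cxcl12 had 0 reads in the deep libraries. Other genes of the same lists were read. Il7r (35.2 to 136 CPM), Ighm (19.9 to 72.8 CPM), Pecam1 (120 to 235 CPM) and Vwf (90.2 to 298 CPM) are not restricted to those cells. The B cell gene Cd79b (0.462 to 8.71 CPM) and the stromal gene Col1a1 (9.63 to 29.5 CPM) were read as well. These lists thus do not show that such cells were absent. In bulk RNA, fewer cells of a type and less RNA per cell cannot be told apart.

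None of the 10 genes differed between the genotypes by edgeR's quasi-likelihood test: 0 of 10 passed an adjusted p of 0.05, against 0% of the 12292 genes tested. At an unadjusted p under 0.05 the count was also 0 of 10, against 1.45% of all genes. DESeq2 called 0 of the 10 genes and 0.0163% of the genes it tested, and limma-voom called 0 of 10 and 0%. With the shallow WT library left out, edgeR called 0 of 10 genes and 0% of all, and 0 of 10 against 1.07% at the unadjusted threshold. With WT replicate 1 left out instead, 3 of 10 genes (Tnf, Csf1 and Il1rl1) had an unadjusted p under 0.05, against 5.90% of all genes. At the adjusted threshold 0 of 10 passed, against 0.0399%. That fit left as WT only WT replicate 2, the lowest deep library for these 3 genes, and the shallow library, with 0, 4 and 3 reads of them. In none of the 10 genes did the 3 KO samples lie all above or all below the deep WT samples. Of all genes tested, 4.79% lay wholly above and 3.87% wholly below. The fitted log2 fold change (KO against WT) was positive in 7 genes and negative in 3, with a median of 0.27 against 0.01 over all genes tested. Without the shallow library it was positive in 6 and negative in 4, with a median of 0.38 against -0.02. In 8 of the 10 genes the standard error (SE) was larger than the fold change itself.

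**Figure D1:**
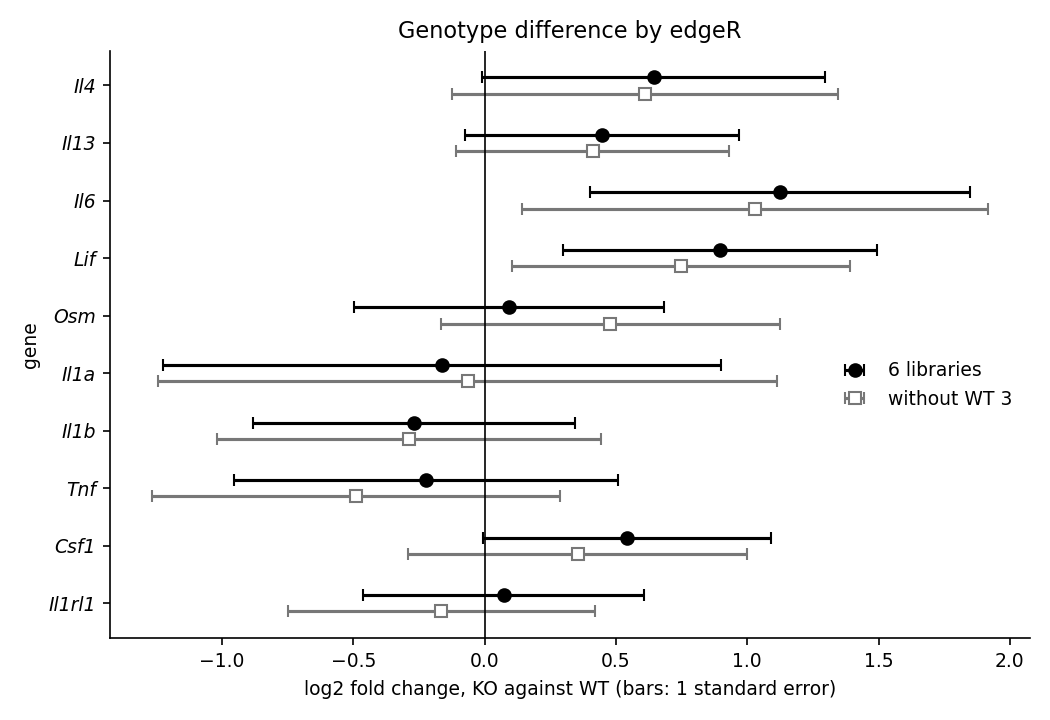
Log2 fold change of KO against WT for each gene (x axis) by edgeR, with bars of 1 SE. Filled circles use all 6 libraries and open squares leave out WT replicate 3. Il6 has the largest value, 1.13, and the bars of all genes but Il6 and Lif cross 0.

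The levels ranged widely between the deep libraries, taken over both genotypes. Across the 5 deep libraries the highest level was more than 4 times the lowest in 7 of the 10 genes, whereas 11.4% of the 12170 genes with a mean of at least 1 CPM ranged that far. The ratio of highest to lowest went from 2.44 for Il13 to 14.8 for Il1a, against a median of 1.93 over those 12170 genes. Between the deep WT libraries alone the ratio was 1.27 to 1.74 for Il4, Il13, Il6, Lif and Osm. It was 2.87 to 14.8 for the other members. Between the KO libraries it went from 2.27 for Il1rl1 to 11.3 for Il1a. The 5 genes Il4, Il13, Il6, Lif and Osm had their highest deep-library level in KO replicate 2. Il1a, Il1b, Tnf and Il1rl1 were highest in WT replicate 1, and Csf1 in KO replicate 3. Of all tested genes, 26.8% were highest in KO replicate 2, 22.3% in WT replicate 1 and 16.4% in KO replicate 3.

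**Figure D2:**
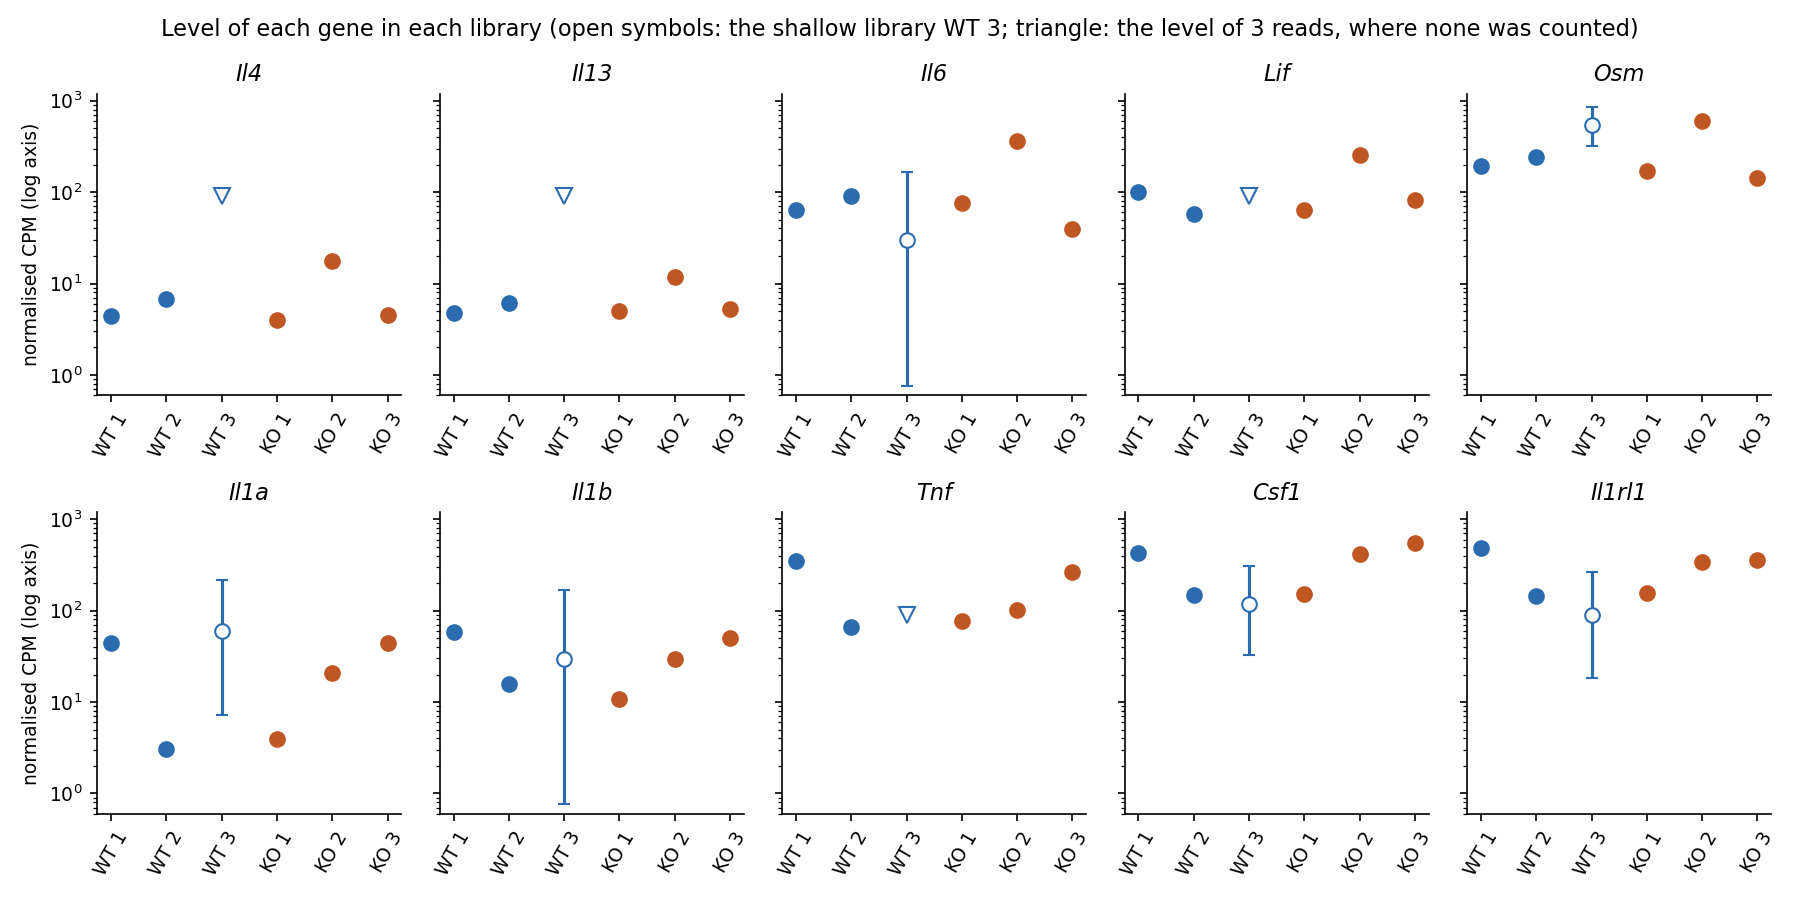
Normalised CPM (log y axis) of each gene in each library (x axis), WT in blue and KO in orange. Open symbols are WT replicate 3, with an exact Poisson 95% interval of the read count or, at 0 reads, a triangle at the level of 3 reads. KO 2 is the highest deep library for the 5 genes from Il4 to Osm, while WT 1 and KO 3 lie above WT 2 and KO 1 for the 5 from Il1a to Il1rl1.

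Il4 and Il13 encode the cytokines that drive IgE class switching and mucus and tissue responses in allergy and worm infection. They lie beside each other on mouse chromosome 11 (GRCm38), Il4 at chr11:53602982-53618669 and Il13 at chr11:53631324-53634702, both on the minus strand, 12.7 kb apart with no coding gene between. Il4 was the ninth and Il13 the tenth of the 10 genes in level per length, but both were read in every deep library. Il4 measured 4.43 and 6.76 CPM in WT against 4.01, 17.6 and 4.49 CPM in KO, from 51 to 111 reads. KO replicate 2 was high and the other 4 libraries lay close together. Il13 had nearly the same order, with 4.79 and 6.07 CPM in WT and 5.03, 11.7 and 5.21 CPM in KO. Both genes had 0 reads in WT replicate 3, where the deep mean would give 0.249 and 0.220 reads, so that library does not bear on them. The KO means were 8.69 ± 7.69 CPM for Il4 and 7.32 ± 3.80 CPM for Il13 (SD, n = 3). The log2 fold changes of 0.64 (SE 0.65) and 0.45 (SE 0.52) had 95% intervals of -0.64 to 1.93 and -0.58 to 1.47. Without KO replicate 2 they were -0.36 and -0.054. In the promoter of the upstream of 2 Il4 starts, taken as the 250 bases before it (chr11:53618666-53618915, minus strand, RefSeq on GRCm38.p6), the NFAT core GGAAAA was found 4 times on the 2 strands. It is printed because NFAT is the classical inducer of Il4, with the matches in capitals.

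Il4 promoter: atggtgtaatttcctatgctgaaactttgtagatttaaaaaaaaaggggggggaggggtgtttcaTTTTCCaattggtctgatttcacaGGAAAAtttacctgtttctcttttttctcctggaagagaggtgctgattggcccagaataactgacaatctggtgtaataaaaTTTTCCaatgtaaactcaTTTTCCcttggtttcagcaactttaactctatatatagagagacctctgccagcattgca

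A match of the same core was in the windows of Il13, Il6, Il1b and Tnf, and in 20.4% of the 32851 mouse promoters of the same table. The GATA motif AGATAA was in the windows of Il13 and Il1rl1 and in 9.99% of all. Gata2, the GATA factor of mast cells and basophils, had 333 and 371 CPM in WT and 264, 897 and 211 CPM in KO. It was highest in KO replicate 2, and its log2 fold change of 0.29 (SE 0.53) did not pass the test. Gata3, the GATA factor of T helper 2 cells and innate lymphoid cells, was at most 0.633 CPM. Il5, the eosinophil growth factor encoded near Il13, was at most 0.158 CPM.

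The list of genes at the type 2 locus and regulators of it held 16 genes, of which 14 were tested and 0 passed in either direction. Their log2 fold changes were positive in 9 and negative in 5, with a median of 0.07. The 3 of lowest p were Rara, the retinoic acid receptor alpha, at 0.67 (SE 0.43), Nfatc2, a calcium-activated transcription factor, at 0.36 (SE 0.39), and Kif3a, a kinesin subunit encoded beside Il4, at -0.48 (SE 0.56). Rara reached 150 CPM in KO replicate 2 against 47.7 to 75.1 CPM in the other deep libraries.

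Il6, Lif and Osm are IL-6 family cytokines whose receptors share the signalling chain gp130, encoded by Il6st. IL-6 drives acute-phase and B cell responses, LIF holds mouse embryonic stem cells in self-renewal, and oncostatin M acts on stroma, bone and liver. Osm (chr11:4236420-4241026, plus strand) lies 16.5 kb before Lif (chr11:4257557-4272514, plus strand) with no coding gene between, and Il6 lies at chr5:30013114-30019981, plus strand.

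Il6 measured 63.1 and 90.7 CPM in WT against 76.2, 358 and 39.7 CPM in KO. KO replicate 2 held about 9.03 times the level of KO replicate 3, so the highest and the lowest of the 5 deep libraries were both KO. The single read of WT replicate 3 gives 29.9 CPM with a 95% counting interval of 0.756 to 166 CPM, which spans every deep library apart from KO replicate 2. Il6 had the largest fold change of the 10 genes, a log2 value of 1.13 (SE 0.72, 95% interval -0.29 to 2.54, unadjusted p = 0.149 and adjusted p = 1.00 by edgeR), with a KO mean of 158 ± 174 CPM (SD, n = 3). Without KO replicate 2 it was -0.32, and without KO replicate 3 it was 1.62 (unadjusted p = 0.012, adjusted p = 1.00 by edgeR). In the fit without KO replicate 3, 1 of the 10 genes, Il6, had an unadjusted p under 0.05, against 341 of the 12530 genes tested.

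Lif stood at 100.001 and 57.5 CPM in WT and at 63.3, 255 and 81.3 CPM in KO, a mean of 133 ± 106 CPM in KO (SD, n = 3). Apart from KO replicate 2, the KO samples lay between the deep WT samples. Lif had 0 reads in WT replicate 3, where its deep mean would give 3.73. Its log2 fold change was 0.90 (SE 0.60, 95% interval -0.28 to 2.07) and 0.015 without KO replicate 2.

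Osm was the most abundant of the 10 genes per length, at 119 CPM per kb of exon on average over the deep libraries. Its levels were 191 and 244 CPM in WT against 170, 601 and 144 CPM in KO. It was also the member best seen in WT replicate 3, with 18 reads where the deep mean would give 9.05. Those 18 reads equal 538 CPM with a 95% counting interval of 319 to 850 CPM. The interval lies above WT replicates 1 and 2 and KO replicates 1 and 3, and includes KO replicate 2. Osm was thus high in KO replicate 2 and, by 18 reads whose interval covers counting error only, in the shallow WT library. The log2 fold change was 0.09 (SE 0.59) with all libraries, 0.48 (SE 0.65) without the shallow one and -0.87 without KO replicate 2.

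The 250 bases before the Il6 start (chr5:30012864-30013113, plus strand) are the most crowded of the promoter windows in kinds of motif: AP-1 (TGANTCA), C/EBP (TTNNGNAAT), the NF-kappaB consensus and, inside it, the NFAT core each occur once. The sequence is printed for this reason, with the matches in capitals from AP-1 at 249 bases before the start to NF-kappaB at 44.

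Il6 promoter: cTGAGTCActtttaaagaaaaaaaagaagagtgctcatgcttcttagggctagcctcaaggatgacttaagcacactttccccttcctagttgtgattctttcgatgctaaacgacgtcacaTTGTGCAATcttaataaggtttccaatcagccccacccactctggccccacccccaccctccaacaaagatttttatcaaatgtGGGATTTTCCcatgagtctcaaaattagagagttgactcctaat

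In all mouse promoters of this length AP-1 was found in 6.75%, C/EBP in 10.2% and the NF-kappaB consensus in 3.90%. Among the other genes, AP-1 was found in Lif and Il1a, C/EBP in Il1b and Il1rl1, and NF-kappaB in Csf1. The cyclic AMP response element in its full form TGACGTCA (1.55% of promoters) was in none of the 9 genes with a sequence in the table. Osm had no entry there. A match of letters describes the window and does not show that a factor binds.

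Il4, Il13, Il6, Lif and Osm were nearest to one another in profile, by the root mean square (RMS) difference of centred log2(CPM + 0.1) over the 5 deep libraries. For Il4, Il13, Il6 and Lif the nearest other member was Osm (0.17, 0.30, 0.38 and 0.45), and for Osm it was Il4. Among 11414 genes with a mean of at least 1 CPM, the nearest to Il4 were Ppfia3 (0.12) and Il1bos (0.14). Those nearest to Il13 were Zfp1 (0.05) and Ankrd24 (0.06), to Il6 Muc20 (0.11) and the activating receptor gene Cd226 (0.14), and to Lif the kinase gene Plk3 (0.05) and Ankrd66 (0.11). Osm was nearest to Cuedc1 (0.06), followed by Gata2 (0.09). These profiles share library, depth and RNA quality, and with 5 libraries many genes fit closely.

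**Figure D3:**
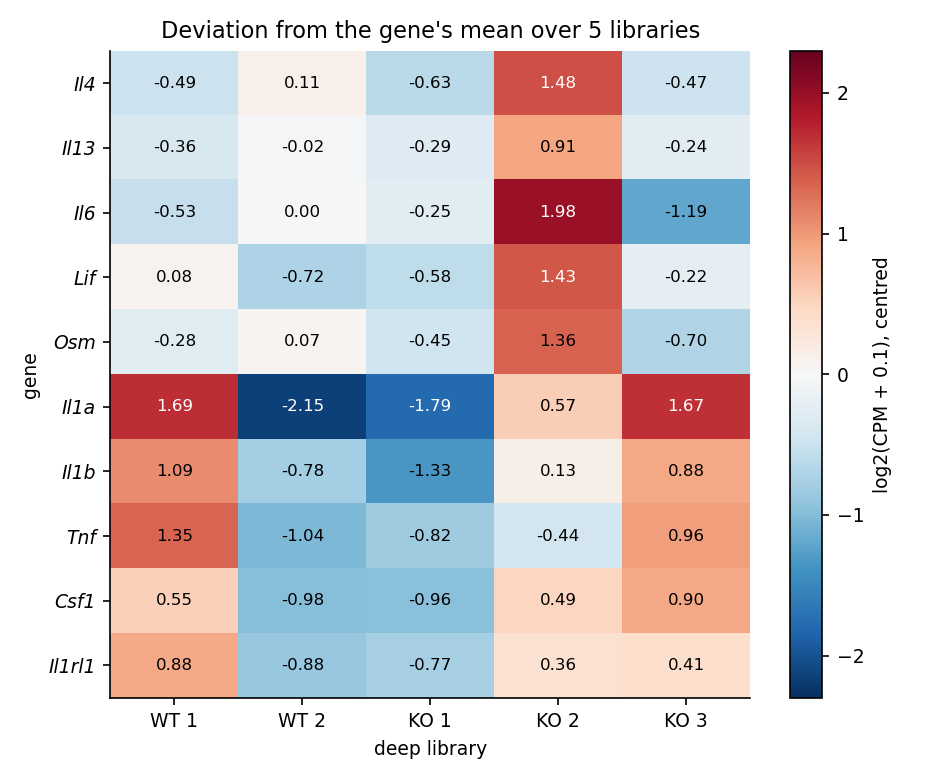
Deviation of each gene (rows) in each deep library (columns) from that gene's mean over the 5 libraries, in log2(CPM + 0.1), with red above and blue below the mean. The upper 5 genes are reddest in KO 2, where Il6 reaches 1.98, and the lower 5 are red in WT 1 and KO 3 and blue in WT 2 and KO 1.

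Of the 6 basophil markers, 4 were highest in KO replicate 2, the library in which the first 5 genes were highest. The share of all tested genes highest there was 26.8%. Fcer1a was highest in WT replicate 1 (170 CPM against 113 in KO replicate 2) and Prss34 in WT replicate 2 (1139 against 1084 CPM). The 6 basophil markers, all of them tested, summed to 5187 and 4419 CPM in WT and to 3042, 9068 and 3958 CPM in KO. Mcpt8, the basophil protease gene, stood at 1193 and 1567 CPM in WT and at 740, 2874 and 523 CPM in KO. Hdc, the histamine-forming enzyme of mast cells and basophils, stood at 367 and 459 CPM in WT and 361, 1146 and 376 CPM in KO. Both were thus highest in KO replicate 2. The sum of 14 mast cell markers (13 tested) was highest there too, at 6376 CPM against 2275 to 4532 CPM elsewhere. Of it, 3453 CPM came from Cpa3, which basophils also express. Cpa3 is on both lists, so the same 3453 CPM is also part of the basophil sum of 9068 CPM. Only 4 of the 14 mast cell markers were highest in KO replicate 2 and 10 were highest elsewhere. Among these 10 was the mast cell protease gene Mcpt2, with 316 and 83.6 CPM in WT and 19.7, 23.6 and 89.1 CPM in KO. The log2 fold change of Mcpt2, -1.92 (SE 0.75), did not pass the test. The mitochondrial share of 15.7% was in KO replicate 2. The part of basophil or mast cell content and of RNA quality in the levels of these cytokines was not tested.

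**Figure D4:**
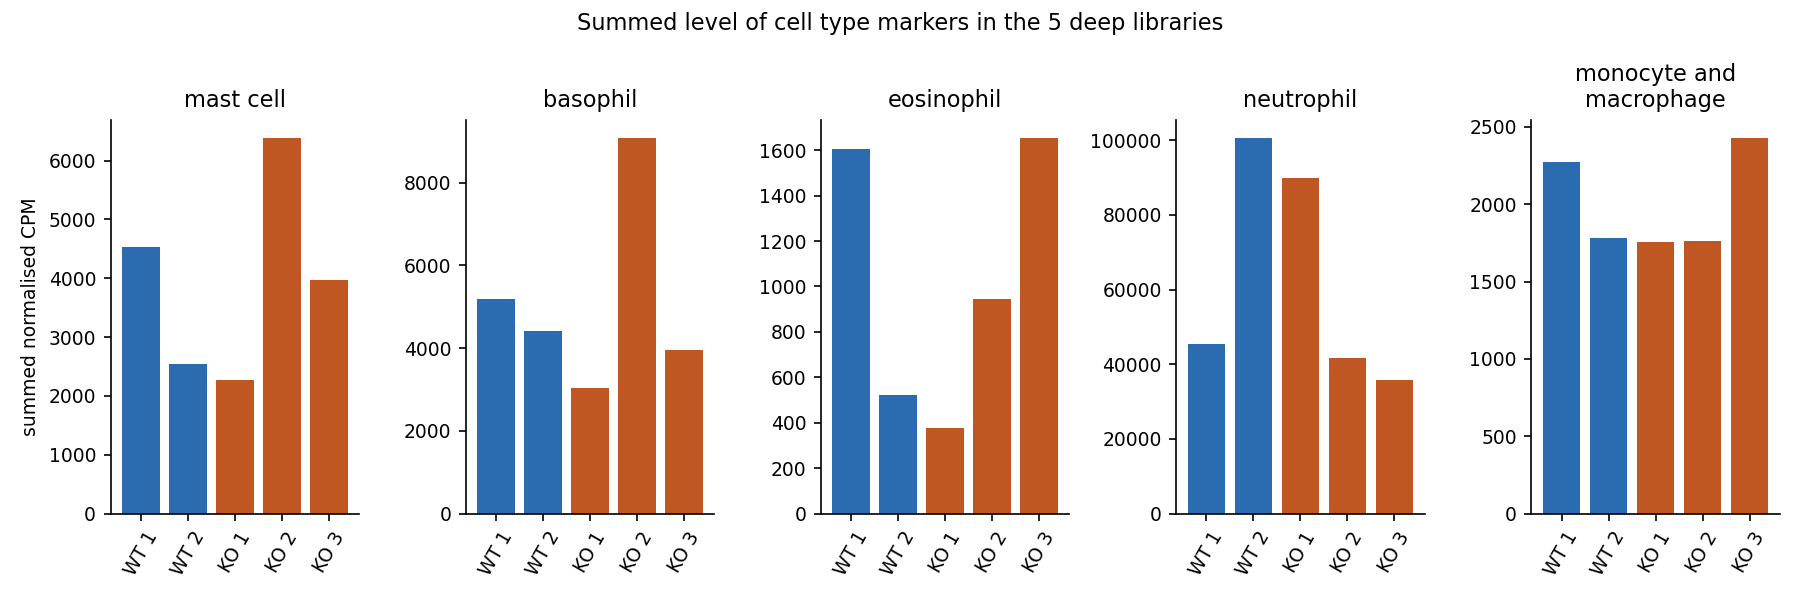
Summed normalised CPM (y axes, each from 0 and on its own scale) of 5 lists of cell type markers in the 5 deep libraries, WT in blue and KO in orange. The sums of basophil and mast cell markers are highest in KO 2, of eosinophil markers in WT 1 and KO 3, and of neutrophil markers in WT 2 and KO 1.

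Il1a and Il1b encode the 2 agonists of the IL-1 receptor, IL-1 alpha acting as an alarmin from dying cells and IL-1 beta being cut by caspase-1 before release. They lie on chromosome 2 on the minus strand, Il1a at chr2:129299610-129309972 and Il1b at chr2:129364570-129371139, 54.6 kb apart with no coding gene between. Each overlaps a transcript of the opposite strand, Gm14023 over 222 exon bases of Il1a and Il1bos over 25 of Il1b, and the counts used here were kept apart by strand.

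Il1a varied most of all 10 genes. It stood at 44.8 CPM in WT replicate 1 and at 3.04 CPM in WT replicate 2, a ratio of 14.8 within the genotype. The KO samples held 3.93, 20.6 and 44.3 CPM, a ratio of 11.3. Each genotype thus had a library near 44 or 45 CPM and a library between 3 and 4. The log2 fold change was -0.16 with an SE of 1.06 (95% interval -2.24 to 1.92), the widest of the set.

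Il1b had a like order over a narrower range, with 57.7 and 15.8 CPM in WT and 10.7, 29.7 and 50.1 CPM in KO. The shallow library held 2 reads of Il1a and 1 of Il1b. The KO means were 22.9 ± 20.3 CPM for Il1a and 30.2 ± 19.7 CPM for Il1b (SD, n = 3). The log2 fold change of Il1b was -0.27 (SE 0.61). Leaving out WT replicate 1 turned the fold changes of both genes, to 2.55 for Il1a and 0.93 for Il1b, still short of the threshold (adjusted p = 0.999 for each by edgeR).

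Tnf, at chr17:35199381-35202007 on the minus strand, encodes tumour necrosis factor, made as a membrane protein and shed by ADAM17. It was second in level per length, at 105 CPM per kb. Tnf measured 348 and 66.4 CPM in WT against 77.2, 101 and 265 CPM in KO. The WT samples lay at both ends of this range, with all 3 KO samples between them. WT replicate 3 held 0 Tnf reads, where the deep mean would give 5.74. The KO mean was 148 ± 102 CPM (SD, n = 3) and the log2 fold change -0.22 (SE 0.73, 95% interval -1.65 to 1.21). Without WT replicate 1 it was 1.41 (unadjusted p = 0.049, adjusted p = 0.843 by edgeR). The Tnf promoter (chr17:35202008-35202257, minus strand) is printed because it carries the TATA box (TATAAA, 29 bases before the start) and the run in which the ETS motif AGGAAGT and an NFAT core join. A TATA match was also found for Il13, Il1a and Il1b, against 12.4% of all promoters, and the ETS motif was in 7.69%.

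Tnf promoter: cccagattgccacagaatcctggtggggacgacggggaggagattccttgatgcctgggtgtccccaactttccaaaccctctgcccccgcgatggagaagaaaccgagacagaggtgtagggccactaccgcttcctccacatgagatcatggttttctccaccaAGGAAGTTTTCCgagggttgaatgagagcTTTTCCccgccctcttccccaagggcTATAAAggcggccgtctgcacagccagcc

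Csf1 encodes M-CSF, the growth factor that keeps macrophages alive through the receptor CSF1R, and lies at chr3:107741048-107760469 on the minus strand. It stood at 431 and 150 CPM in WT and at 152, 416 and 550 CPM in KO, a KO mean of 372 ± 202 CPM (SD, n = 3). WT replicate 2 and KO replicate 1 were low and nearly equal. In WT replicate 3 it had 4 reads where the deep mean would give 11.4. The log2 fold change was 0.54 (SE 0.55, 95% interval -0.53 to 1.62). It kept its sign under each processing alternative tried, from 0.18 to 1.44, and had the lowest adjusted p of any member under any of them, 0.648 without WT replicate 1 by edgeR.

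Csf1r, the receptor of Csf1, stood at 485 and 133 CPM in WT and at 158, 169 and 442 CPM in KO, with a log2 fold change of -0.01 (SE 0.61). Ligand and receptor were thus both read in the same libraries, and WT replicate 1 and KO replicate 3 were high for each.

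Il1rl1, at chr1:40429570-40465415 on the plus strand, encodes ST2, which mast cells, basophils and eosinophils carry as a membrane receptor and which is also made as a soluble decoy. These gene counts do not separate the 2 forms. Il1rl1 stood at 491 and 145 CPM in WT and at 157, 342 and 355 CPM in KO, a KO mean of 285 ± 111 CPM (SD, n = 3). WT replicate 1 was the highest and WT replicate 2 the lowest of the 5. The shallow library held 3 reads against 9.97 at the deep mean. The log2 fold change was 0.07 (SE 0.54, 95% interval -0.98 to 1.12), and -0.16 without the shallow library. Without WT replicate 1 it was 1.16 (unadjusted p = 0.022, adjusted p = 0.777 by edgeR). Il33, its ligand, had 1 read in KO replicate 1 and 1 in KO replicate 3 and none in the other libraries.

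For Il1a, Il1b, Tnf, Csf1 and Il1rl1 the levels were low in WT replicate 2 and KO replicate 1 and high in WT replicate 1 and KO replicate 3. KO replicate 2 lay between and differed by gene. It was close to the high libraries for Csf1 (416 CPM) and Il1rl1 (342 CPM), but closer to the low ones for Tnf (101 CPM). Csf1 and Il1rl1 were nearest to each other among the members (RMS 0.29), Il1b was nearest to Csf1 (0.35), Tnf to Il1b (0.38) and Il1a to Il1b (0.81). Over all candidates, the nearest genes to Il1a were the neutrophil-attracting chemokine gene Cxcl2 (0.24) and Txlnb (0.27). For Il1b they were Prg2 (0.12), which encodes the major basic protein of eosinophils, and Rtp4 (0.15). Tnf was nearest to Relb (0.07), an NF-kappaB subunit gene, and Mmp14 (0.11). Csf1 was nearest to Sh3bp4 (0.09) and the immediate early gene Egr3 (0.12), and Il1rl1 to the pseudokinase gene Trib1 (0.07) and Tnip3 (0.08), which encodes an inhibitor of NF-kappaB signalling. Cxcl2 showed the spread at a higher level than Il1a, with 145 and 9.89 CPM in WT and 8.89, 70.2 and 111 CPM in KO.

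Of the 7 eosinophil markers, 6 were highest in WT replicate 1 or KO replicate 3, the libraries in which these 5 genes were high. The shares of all tested genes were 22.3% for WT replicate 1 and 16.4% for KO replicate 3. Siglecf varied little apart from a low KO replicate 2 (23.2 and 23.3 CPM in WT, 24.0, 11.4 and 27.4 CPM in KO). Ear2 went another way, with 33.6 and 34.7 CPM in WT and 57.6, 116 and 54.1 CPM in KO. The 7 markers, 6 of them tested, summed to 1607 and 521 CPM in WT and to 375, 946 and 1652 CPM in KO. Ccr3, the eosinophil chemokine receptor, was at most 0.7 CPM, while Prg2 and Epx, which encode granule proteins, made up most of the sum. The 13 monocyte and macrophage markers, all tested, summed to 2272 and 1781 CPM in WT and to 1756, 1762 and 2426 CPM in KO. Their members differed in order, with 4 of 13 highest in WT replicate 1 or KO replicate 3 and 7 in WT replicate 2. For WT replicate 2 the share of all tested genes was 24.9%. Adgre1, which encodes F4/80, stood at 366 and 109 CPM in WT and at 175, 170 and 416 CPM in KO. F13a1 had 114 and 142 CPM in WT and 65.7, 27.7 and 36.4 CPM in KO. Mrc1 had 261 and 393 CPM in WT and 473, 478 and 423 CPM in KO. The 13 neutrophil markers, all tested, ran the other way, with 45296 and 100469 CPM in WT and 89770, 41690 and 35749 CPM in KO. The part of cell content in the levels of these 5 genes was not tested.

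Levels between genes can be compared per kb of exon. Osm (119 CPM per kb) and Tnf (105) were followed by Csf1 (64.3), Il6 (51.7), Il1rl1 (43.2), Lif (25.6), Il1b (17.2), Il1a (11.8), Il4 (6.07) and Il13 (5.45), as means over the 5 deep libraries. The ranges of neighbours in this order overlapped in every case, Osm spanning 63.3 to 264 CPM per kb and Tnf 40.5 to 212. Osm lay above Lif in all libraries, since the lowest Osm level exceeded the highest Lif level of 58.6 CPM per kb. Il4 and Il13 reached at most 14.3 and 9.71 CPM per kb.

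The 10 genes shared a feature of the 3′ UTR. In the principal transcript of each gene (GENCODE M21), all 10 held at least 1 copy of the AU-rich heptamer TATTTAT, and 7 held at least 2. Of the 11478 tested coding genes 28.3% held at least 1, among them the 9.75% that held at least 2. Tnf had 8 copies, Lif 5, and Osm, Il1a and Il1b 3 each. Here 5 stretches of 30 bases are printed to show how differently the copies are packed, with each heptamer in capitals (U in the RNA is written T).

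Tnf 3′ UTR: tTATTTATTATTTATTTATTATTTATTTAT
Il1b 3′ UTR: aaccacttaccTATTTATTTATgTATTTAT
Osm 3′ UTR: atccgttttaTATTTATaaggccTATTTAT
Lif 3′ UTR: gctgtcTATTTATtactatgtccTATTTAT
Il6 3′ UTR: actttaagttaatttatgattgaTATTTAT

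In Tnf 5 heptamers run into one another over bases 438 to 467 of a 3′ UTR of 764 bases. In Il1b 2 of 3 overlap, in Osm and Lif 2 stand apart by spacers of 6 and 10 bases, and Il6 has a single copy. The shorter pentamer ATTTA gave the density per length. Il4 had 19.2 per kb, Il6 14.1, Tnf 10.5, Il1b 8.72 and Osm 5.90, which lie at percentiles 99.8, 99.6, 99.0, 98.5 and 95.5 of the tested coding genes. The Il4 density rests on only 2 pentamers in a 3′ UTR of 104 bases, whereas Tnf had 8 in 764 bases. Il13 had 4.05, Il1a 2.73, Lif 2.20, Csf1 1.90 and Il1rl1 0.924, the last at percentile 42.4. The median over the 10 was 4.97 against 1.27 over the tested coding genes, whose 3′ UTRs had a median of 1015 bases against 890.5 for the members. The one receptor gene thus had the lowest density, and the counts are of letters, not of measured decay.

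**Figure D5:**
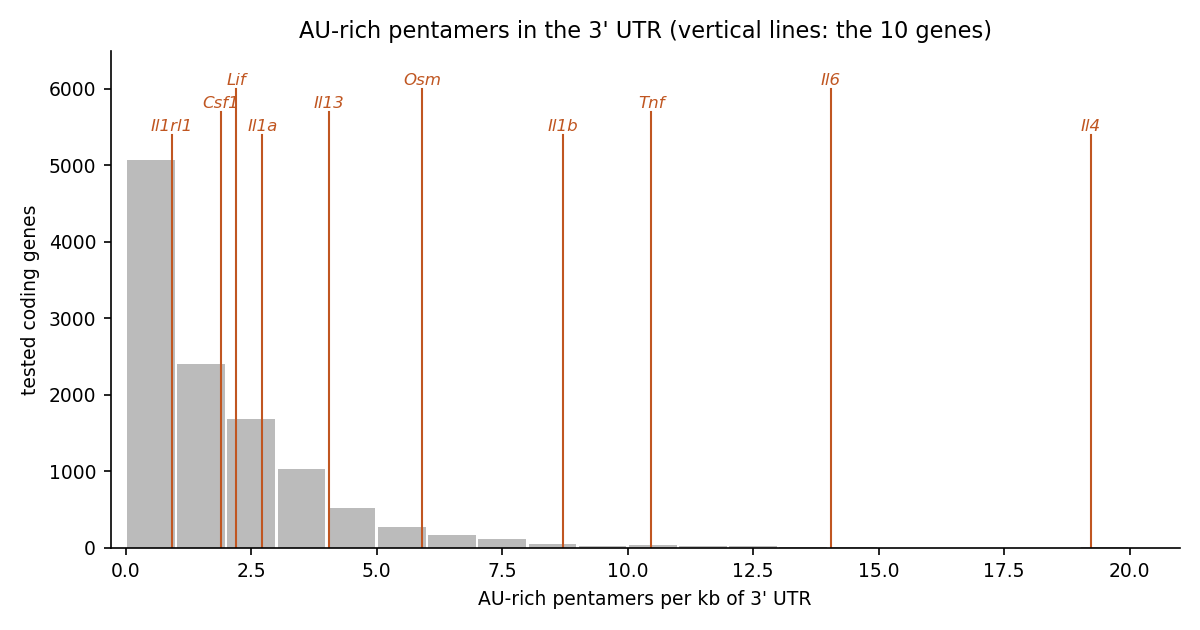
Number of tested coding genes (y axis) by AU-rich pentamers per kb of 3′ UTR (x axis, bins of 1), with a vertical line at each of the 10 genes. Most genes lie below 3, where Il1rl1, Csf1, Lif and Il1a also lie, while Il4 at 19.2 and Il6 at 14.1 are far to the right. The Il4 value comes from 2 pentamers in 104 bases.

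The genes that limit such transcripts were read as well. Of 15 genes of feedback and mRNA decay all were tested and 0 passed in either direction, with 10 positive and 5 negative log2 fold changes and a median of 0.07. Zfp36, which encodes tristetraprolin, had 205 and 172 CPM in WT and 191, 228 and 181 CPM in KO, a range far narrower than that of any member. The 3 of lowest p were the NF-kappaB inhibitor gene Nfkbia at -0.36 (SE 0.36), the stress factor gene Atf3 at 0.37 (SE 0.43) and Zc3h12a, which encodes the RNase regnase-1, at 0.34 (SE 0.40). Of 11 immediate early genes, all tested, 0 passed, with 8 positive and 3 negative and a median of 0.18. Egr2 was at 0.92 (SE 0.52), Ier2 at -0.42 (SE 0.39) and Egr3 at 0.45 (SE 0.66). Egr2 stood at 27.9 and 16.0 CPM in WT and at 28.9, 76.1 and 28.6 CPM in KO, with KO replicate 2 the highest.

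Of 14 cytokine receptor genes 12 were tested and 0 passed, with 6 positive and 6 negative and a median of 0.01. Il6st, the gp130 gene, stood at 51.0 and 69.0 CPM in WT and at 70.2, 131 and 43.8 CPM in KO, with a log2 fold change of 0.55 (SE 0.48). Lifr, the LIF receptor gene, was scarce, at 1.17 to 3.64 CPM in the deep libraries (0.67, SE 0.61), and Il1rap, the co-receptor of ST2 and of the IL-1 receptor, was at 13.1 to 44.3 CPM (-0.28, SE 0.55). Osmr, the oncostatin M receptor gene, was at most 0.158 CPM while Osm was the most abundant of the 10 genes per length, and the decoy receptor gene Il13ra2 had 0 reads in every library.

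Of 19 genes of IL-33 and IL-1 signalling 18 were tested and 0 passed, with 11 positive and 7 negative and a median of 0.09. The 3 of lowest p were Il18rap at 0.57 (SE 0.41) and Il18r1 at 0.87 (SE 0.65), which encode the IL-18 receptor chains, and the kinase gene Ikbkb at 0.41 (SE 0.37). Il18r1 stood at 24.8 and 22.8 CPM in WT and 28.5, 96.3 and 14.7 CPM in KO, again with KO replicate 2 the highest. Il1rn, which encodes the IL-1 receptor antagonist, stood at 199 to 324 CPM in the deep libraries. Of 10 genes of cytokine processing and shedding all were tested and 0 passed, with 8 positive and 2 negative and a median of 0.10. The 3 of lowest p were Rhbdf2, a partner of ADAM17, at 0.29 (SE 0.37), Casp8 at 0.25 (SE 0.34) and Casp1 at 0.25 (SE 0.43).

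Most other cytokine genes were scarce. Of 30 listed, 29 were found (Flt3l was not matched), 10 were tested and 0 passed, with 6 positive and 4 negative and a median of 0.06. Il9, Il31, Ifng and Ifnb1 had 0 reads in the deep libraries, and Il3, a growth factor supplied in the medium, was at most 0.475 CPM. The most abundant was Spp1, which encodes osteopontin, at 4528 and 1919 CPM in WT and 2957, 4072 and 2891 CPM in KO. The 3 of lowest p were Il12a at -0.49 (SE 0.58), Tgfb1 at 0.26 (SE 0.46) and Vegfa at -0.18 (SE 0.43).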

How the data were processed

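Gene counts were deposited per sample. Per the submitters' processing notes, reads were handled with STAR 2.5.1b on GRCm38 and DESeq2 was used. The libraries were stranded, per the labels' protocols, and the reverse-strand counts (column 4 of the deposited count files) were used, which took 95.6% to 97.5% of the strand-resolved gene reads. Counts of the 2 runs of WT replicate 3 were summed. Reads in the 4 rows naming no gene were left out (25.6% to 47.8% per library). Groups came from the sample titles.

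Genotypes were compared with edgeR 4.0.16 (quasi-likelihood test, filterByExpr, TMM scaling, two-sided, Benjamini-Hochberg adjustment over 12292 genes, threshold 0.05), in R 4.3.3. DESeq2 1.42.0 and limma-voom 3.58.1 were alternatives. Only the edgeR fit was tested on simulated counts, with large changes and the same dispersion for all genes, so that test does not give its power in these data. CPM used TMM-scaled library sizes, and intervals for WT replicate 3 are exact Poisson intervals that cover counting error only. The SE by edgeR was derived from the fold change and the test statistic. The 95% intervals of fold changes take a normal distribution around it, so with few samples they are narrower than the test itself would give. Promoters were taken from RefSeq (GRCm38.p6), 3′ UTRs and gene positions from GENCODE M21, whose versioned identifiers matched for all 10 genes. Motifs were searched on both strands of promoters, and AU-rich elements on the transcript strand.

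The 10 genes and the pathway and marker lists were chosen with earlier results of these data known. All 10 genes are named, with the 3 genes of lowest p in each pathway list where none passed, the 2 genes nearest in profile to each, and further listed genes named for their role after their values were seen. A 3′ UTR stretch of 1 gene is not reported here.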

Additional observations from a re-analysis of the deposited data

How the results depend on the processing

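Across 17 alternatives (15 planned and 2 added after the data were seen) 0 of the 10 genes were called, and the lowest adjusted p of the 170 values was 0.648. The sign turned in 30 of the 170. The number of all genes called, 0 by edgeR with every library, was 2 with scaling by library size, 9 without the low-count filter, 2 by DESeq2, 13 with only the second run of WT replicate 3, and 12 by DESeq2 with WT replicate 3 left out. It ranged from 0 to 5 when 1 sample was left out at a time. The fold changes then ranged from -0.36 to 1.00 for Il4, -0.0538 to 0.67 for Il13, -0.32 to 1.62 for Il6, 0.015 to 1.44 for Lif, -0.87 to 0.48 for Osm, -1.08 to 2.55 for Il1a, -0.84 to 0.93 for Il1b, -0.95 to 1.41 for Tnf, 0.18 to 1.44 for Csf1 and -0.24 to 1.16 for Il1rl1. Without WT replicate 1 the unadjusted p by edgeR was 0.049 for Tnf, 0.012 for Csf1 and 0.022 for Il1rl1. In that fit 5.90% of all genes had an unadjusted p under 0.05, and WT held only replicate 2 and the shallow library. Without KO replicate 3 the unadjusted p by edgeR was 0.012 for Il6, and 341 of the 12530 genes tested were under 0.05. Values that turned were Osm at -0.0797 with scaling by library size, Tnf at 0.0399 by DESeq2, Il1a at 0.26 by limma-voom and Il1rl1 at -0.16 by DESeq2 with WT replicate 3 left out. With WT replicate 3 and KO replicate 2 both left out, Il4 was at -0.40, Il13 at -0.0864, Il6 at -0.41, Lif at -0.13, Osm at -0.48, Il1a at 0.0030 and Il1rl1 at -0.32. The cause was not tested, beyond the smaller number of samples. Leaving an arm with few samples assumes that they vary like the others.

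With the replicate block 13 genes were called, none of them a member, and Osm was at -0.18 and Tnf at 0.0778. Same-numbered samples were not the most alike between the genotypes: deviations from the group means correlated at -0.33, -0.052 and -0.21 across 12292 genes. WT replicate 1 with KO replicate 3 gave 0.50, WT replicate 2 with KO replicate 1 0.32 and WT replicate 3 with KO replicate 2 0.19. Deviations within a genotype depend on each other, and the WT mean includes the shallow library. The correlations therefore cannot settle whether the samples were paired. Depth limits WT replicate 3, in which 4 of the 10 genes had 0 reads.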
